A study of Mus musculus with 14 samples.

Results

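The genes described here encode the proteins of the cytosolic ribosome. They were taken from the deposited count table by symbol: protein-coding genes named Rpl or Rps with a number, Rplp0 to Rplp2, and Rpsa. This rule gave 77 genes among 52636 gene identifiers, of which 21896 were annotated as protein coding. The set held 31 genes of the small subunit (Rpsa included), 43 of the large subunit and 3 of the stalk. A further 6 paralogs with an l for "like" in the symbol, such as Rps27l, matched the pattern and were kept apart. Fau, which encodes a ribosomal protein fused to a ubiquitin-like protein, lies outside the rule and is given separately.

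All libraries came from I1DN cells, the labels' name for a mouse leukemia that the study describes as carrying mutant IDH1, grown in transplanted mice and sorted per mouse as cKit-positive, CD11b-negative progenitors. The labels do not spell out the alleles behind the name. The groups were relapse (n = 4, disease that returned after 28 days of AG120), AG120 day 5 (n = 3) and AG120 day 14 (n = 2), treated for that long, and their controls vehicle day 5 (n = 3) and vehicle day 14 (n = 2). AG120, also called ivosidenib, inhibits mutant IDH1. No group stands for untransplanted or healthy marrow. RNA was read with QuantSeq, a kit that sequences the 3′ end of polyadenylated transcripts, so the length of a transcript does not enter its count. Levels are set side by side between genes on that basis, except where near-identical copies make them uncertain, as described below.

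A ribosome is built from ribosomal RNA and close to equal numbers of each ribosomal protein, and the mRNAs of these proteins are among the most abundant in dividing cells. Many begin with a tract of pyrimidines at the 5′ end, the 5′ terminal oligopyrimidine or TOP motif, through which mTORC1 and the protein LARP1 control their translation and stability. In blood formation the genes are known for Diamond-Blackfan anemia, a human red cell disorder in which 1 copy of a ribosomal protein gene is lost, and for RPS14 in human myelodysplasia with loss of the long arm of chromosome 5. Relative mRNA levels do not measure translation.

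Of the 77 genes, 57 matched an entry of RefSeq's start sites (GRCm38.p6). From these the bases around the annotated start are shown. The genes are a few that the results below turn on and 2 of the highest members. Rplp1, Rpl3, Rps29, Rps14 and Rps20 are named without a window. Each window holds 15 bases before the annotated start and 15 bases from it, 5′ to 3′ on the strand of the gene, and capitals mark the longest run of only C and T that touches the 5 bases on either side of the start.
Rpl27a (chr7:109519180-109519209, plus strand): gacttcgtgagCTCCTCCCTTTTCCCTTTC
Rps9 (chr7:3704026-3704055, plus strand): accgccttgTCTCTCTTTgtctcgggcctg
Rpl14 (chr9:120571502-120571531, plus strand): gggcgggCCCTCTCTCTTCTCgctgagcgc
Rps24 (chr14:24490663-24490692, plus strand): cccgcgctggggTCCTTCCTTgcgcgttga
Rpl39 (chrX:37085208-37085237, minus strand): cctaagctccgCCTCTagcgacttcttcta
Rps28 (chr17:33824548-33824577, minus strand): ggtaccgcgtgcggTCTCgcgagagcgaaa
Rpsa (chr9:120127751-120127780, plus strand): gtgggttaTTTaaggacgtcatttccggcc
Rpl10 (chrX:74270801-74270830, plus strand): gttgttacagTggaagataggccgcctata

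The run was 20 bases in Rpl27a, 14 in Rpl14, 9 in both Rps9 and Rps24, and 5 or fewer in Rpl39, Rps28, Rpsa and Rpl10. A run of at least 8 bases was present in 19 of the 57 matched members (33.3%), against 1581 of 16478 protein-coding genes with an entry (9.59%). The median run was 5 bases in the members and 3 bases in the protein-coding genes. The annotated transcript began with C in 35.1% of the members and in 14.0% of the protein-coding genes. The marking does not require the run to hold the start, and in Rpsa and Rpl10 it lay wholly before the start. A run is thus a description of these letters and not a call of the TOP motif. A shorter one says only that the annotated window does not hold a longer run there.

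Total counts per library were 4995738 to 8691708, of which gene models of ribosomal RNA took 50.9% to 74.8%. The usable depth was lowest in AG120 day 14 replicate 1, with 1259982 other counts. The sort label was checked on Cd34, Kit and Itgam. Cd34, a stem and progenitor marker, was at 7.65 to 11.4 CPM in AG120 day 5 and 126 to 146 CPM in vehicle day 5, where CPM is the count scaled to a common library size. It was also lower in AG120 at day 14 (−4.77 log2 units, adjusted p = 1.86e-09, edgeR's quasi-likelihood test). Kit, which encodes cKit, was detected in all 14 libraries at 11.6 to 51.9 CPM, and was lower in AG120 at day 14 (−1.62, adjusted p = 0.022). Itgam, which encodes CD11b, was at 2.55 to 53.4 CPM, was lower in AG120 at day 5 (−2.02, adjusted p = 0.0103) and higher in relapse than in AG120 (2.64, adjusted p = 0.000177). The part of these markers in the ribosomal protein results was not tested.

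All 77 genes passed the filter on low counts, and together they were among the main products of these cells. Their share of the counts outside ribosomal RNA models was 9.40%, 8.20%, 9.88% and 10.2% in relapse replicates 1, 2, 3 and 4. In AG120 day 5 it was 9.34%, 9.22% and 9.65%, and in AG120 day 14 it was 7.96% and 9.15%. In vehicle day 5 it was 9.41%, 9.70% and 10.2%, and in vehicle day 14 it was 9.19% and 9.72%. The groups overlapped at day 5, and at day 14 both AG120 libraries lay below both vehicle libraries. Means were 9.42% ± 0.88 in relapse (SD, n = 4), 9.40% ± 0.22 in AG120 day 5 (SD, n = 3) and 8.55% ± 0.84 in AG120 day 14 (SD, n = 2). They were 9.75% ± 0.38 in vehicle day 5 (SD, n = 3) and 9.45% ± 0.37 in vehicle day 14 (SD, n = 2).

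**Figure D1:**
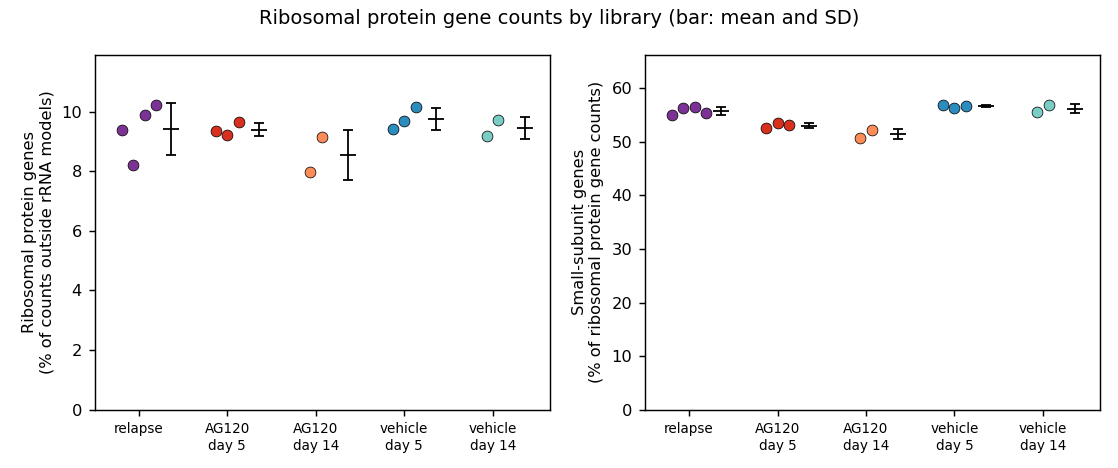
Left, ribosomal protein genes as a percentage of the counts outside ribosomal RNA models; right, small-subunit genes as a percentage of ribosomal protein gene counts. Each point is a library and the black bar gives mean and SD; the small-subunit share is 50.7% to 53.5% in the 5 AG120 libraries and 55.6% to 56.8% in the 5 vehicle libraries.

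The members differed in level by up to 1104-fold. Rps9 was highest at a mean of 2610 CPM, followed by Rpl27a at 2272, Rplp1 at 1986, Rps14 at 1845, Rps20 at 1598 and Rps25 at 1236 CPM. These 6 genes held 33.2% of the summed level of the set. The median member was at 268 CPM, 9 members were at 1000 CPM or more, 25 were under 100 CPM and 8 were under 10 CPM.

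Part of this range moved with how unique each 3′ end is. Ribosomal protein genes have many processed pseudogenes, copies of the mRNA in the genome, and reads that match several places can be lost or assigned elsewhere. The last 300 bases of each transcript were searched in 50-base words for matches in other genes. In 23 members at least 80% of the words were shared with another gene, in 37 members some were, and in 17 members none were. The median levels were 66.7, 423 and 402 CPM in these sets. Of the 8 members under 10 CPM, 7 had at least 80% shared words. Rps12 held 687 counts in all libraries together, against 12974 in its pseudogene Rps12-ps3. Rpl23a held 610 counts, against 13593 in Rpl23a-ps3. The lowest members were Rps27, at 2.36 CPM with 100% of words shared, and Rpl27, at 2.78 CPM with 83.3% shared. Levels of these genes are therefore uncertain as measures of their transcripts. Rps24, Rpl14, Rplp0 and Rps20 had no shared word. Other genes that the results below name did share words: 66.9% in Rplp1, 74.1% in Rpsa, 76.5% in Rpl3, 79.3% in Rps2 and 83.3% in Rps6. It was 21.1% in Rpl39, 48.6% in Rps29 and 68.5% in Rps28.

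**Figure D2:**
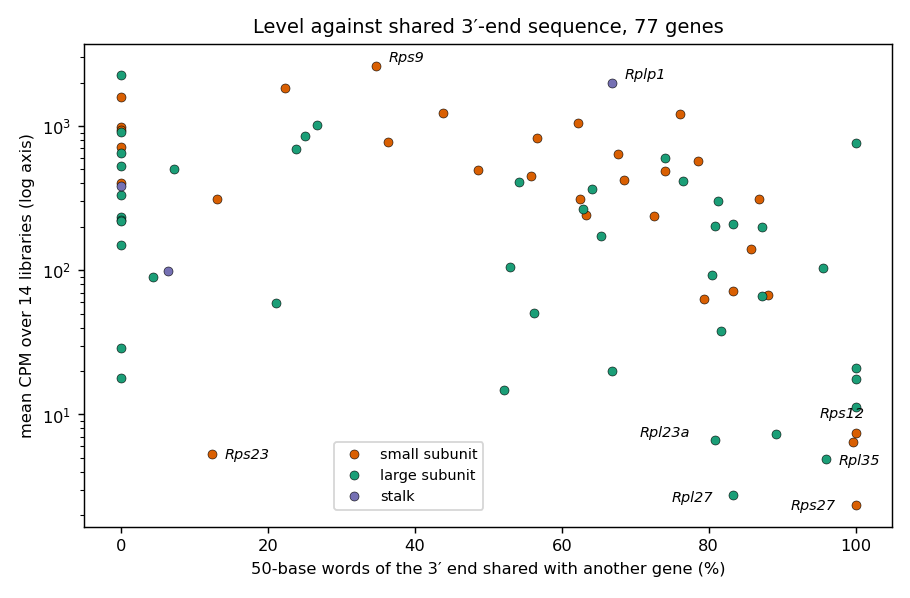
Mean level of each of the 77 genes (log axis, CPM over 14 libraries) against the percentage of 50-base words of its 3′ end shared with another gene. The lowest genes, Rps27 at 2.36 CPM and Rpl27 at 2.78 CPM, lie at the right, and Rps9 is highest at 2610 CPM.

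Libraries of the same group differed in the set as a whole. In relapse, replicate 2 held the lowest value of the 4 libraries in 67 of the 77 members, and replicate 4 the highest in 52. In AG120 day 14, replicate 1 lay below replicate 2 in 65 members, and in vehicle day 14 replicate 1 lay below replicate 2 in 57. Relapse replicate 2 also stood apart in some neutrophil genes: Ngp was at 289 CPM there and at 18.4 to 29.7 CPM in the other relapse libraries, and Camp at 86.3 and 0.72 to 2.47 CPM. Ltf and Mmp8 were also highest there. Mpo, Elane and Cxcr2 did not set it apart: Mpo was at 403 CPM there and 376 to 1658 CPM in the others, and Elane at 1.78 and 0.55 to 9.69 CPM. The part of these neutrophil genes in the ribosomal protein levels was not tested. The counts of called members are given below with and without relapse replicate 2 and AG120 day 14 replicate 1, as are the named calls lost without them. Across all 14 libraries the median member spanned 0.68 log2 units from its lowest to its highest library, and the median of the other tested genes was 1.45. The steadiest members within groups were Rpsa, Rpl14 and Rpl3, with within-group SDs of 0.05, 0.06 and 0.06 log2 units. The least steady were Rps27 at 0.53, Rps12 at 0.49 and Rpl35 at 0.43, each under 8 CPM.

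**Figure D3:**
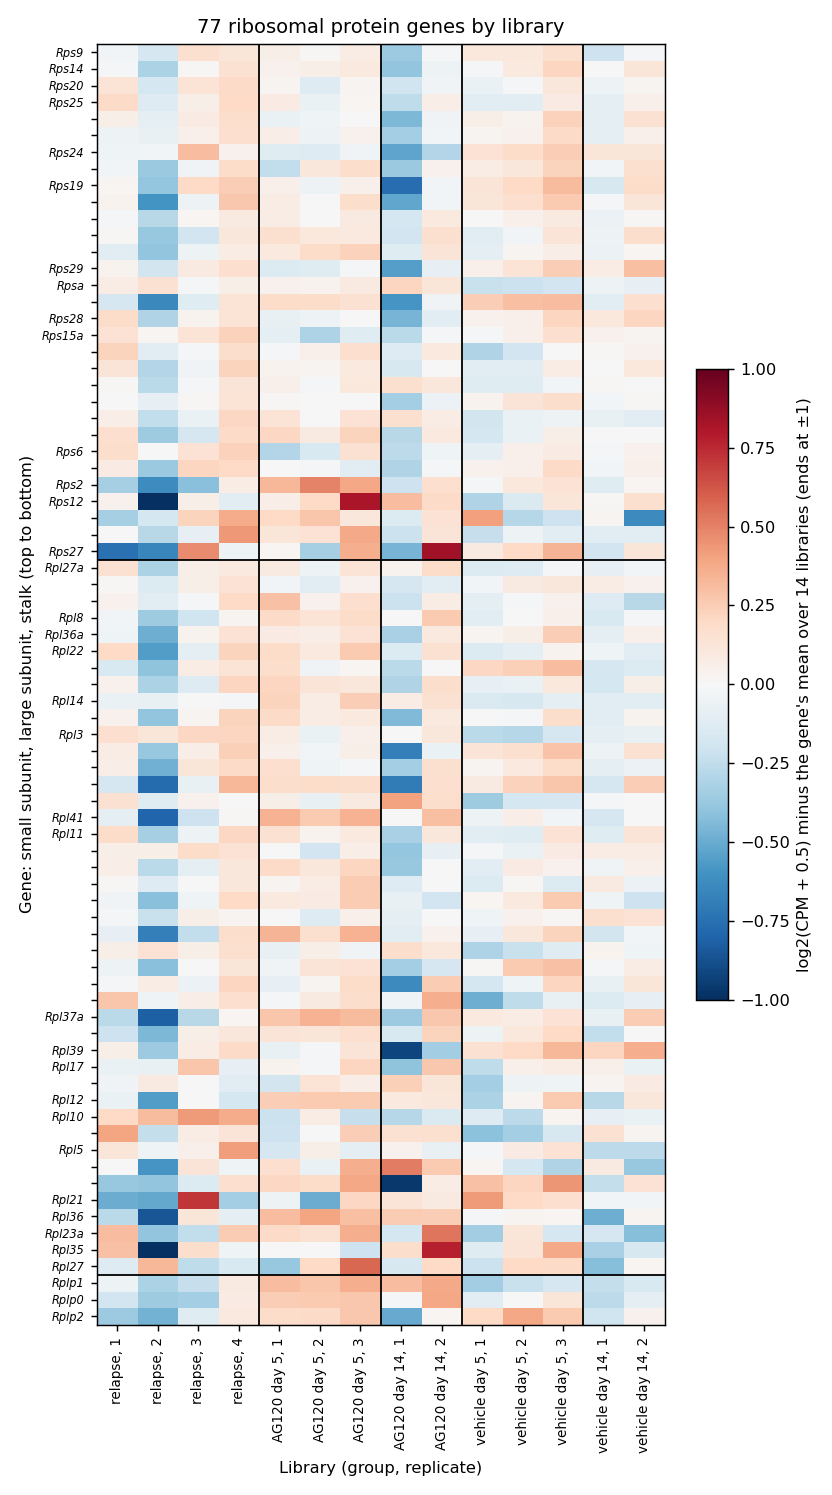
Level of each of the 77 genes (vertical axis) in the 14 libraries (horizontal axis), as log2(CPM + 0.5) minus the gene's mean over the libraries; red is above and blue below that mean, and only genes named in the text are labelled. Relapse replicate 2 is the bluest relapse column in most rows, with the lowest value in 67 members, and Rplp1 is red in the AG120 columns.

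The first comparison asked what 5 days of AG120 did to these mRNAs. Of 77 members, 4 rose, 1 fell and 72 did not pass the test at an adjusted p under 0.05 (edgeR's quasi-likelihood test, Benjamini-Hochberg over 11994 genes). Over all genes tested, 20.1% rose and 19.3% fell. Rplp1 rose most, followed by Rpl14, Rpsa and Rpl3, and Rps24 fell. No member changed more than 2-fold, and the median member was at 0.07 log2 units, against 0.00 for the other tested genes. With the share of ribosomal RNA as a covariate the median member was at 0.19 log2 units at day 5, and at 0.08 at day 14, against 0.01 and 0.00 over all genes.

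Rplp1 encodes an acidic protein of the lateral stalk, which recruits elongation factors to the ribosome. Its gene lies on chromosome 9 from 61913284 to 61914542 (GRCm38, minus strand). It was at 2412, 2370 and 2509 CPM in AG120 day 5, against 1535, 1676 and 1735 CPM in vehicle day 5. The 3 AG120 libraries all lay above the 3 vehicle libraries, as in 30.2% of all tested genes. The fold change was 1.47 (0.56 ± 0.11 log2 units, SE, adjusted p = 0.000834). Rplp0, the anchor of the stalk on the large subunit, was at 450, 455 and 457 CPM in AG120 and 350, 380.1 and 413 CPM in vehicle, which did not pass (0.25 ± 0.13, adjusted p = 0.143). Rplp2, the partner of Rplp1 in the stalk, was at 110.2, 111 and 117 CPM in AG120 and 111, 127 and 116 CPM in vehicle (−0.07 ± 0.15, adjusted p = 0.757). Of the 3 genes of the stalk only Rplp1 thus passed, and the difference between these genes was not tested.

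The other members that rose did so by 1.20 to 1.25-fold and were the steadiest genes of the set. Rpl14, a protein of the large subunit, was at 613, 551 and 623 CPM in AG120 and 475, 469.5 and 491 CPM in vehicle (0.32 ± 0.09, adjusted p = 0.0137). Rpsa, a small-subunit protein that is also known as a precursor of a laminin receptor, was at 504, 502 and 519 CPM in AG120 and 419, 421 and 428 CPM in vehicle (0.27 ± 0.09, adjusted p = 0.0306). Rpl3, which lies near the catalytic centre of the large subunit, was at 438, 397 and 431 CPM in AG120 and 344, 341 and 370 CPM in vehicle (0.26 ± 0.10, adjusted p = 0.038). In all 3 genes the AG120 libraries lay above the vehicle libraries, as in 23 of the members and 30.2% of all tested genes.

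Rps24, a small-subunit protein needed for processing of ribosomal RNA, was at 899, 889.8 and 949 CPM in AG120, against 1079, 1110 and 1159 CPM in vehicle. Its gene lies on chromosome 14 from 24487125 to 24496959. The groups did not overlap, as in 13 of the members and 29.8% of all tested genes in this direction. The change was −0.29 ± 0.11 log2 units (SE, adjusted p = 0.0469). This call was lost when any 1 of the 6 day 5 libraries was left out. The count of members that rose was 1 without AG120 replicate 3 or vehicle replicate 2, and 2 without AG120 replicate 1 or vehicle replicate 1. Over 16 alternatives Rplp1 passed in 16, Rpl14 in 13, and Rpsa and Rpl3 in 7 each.

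The highest members stayed within narrow limits at day 5. Rps9, of the small subunit, was at −0.07 log2 units with a 95% interval of −0.32 to 0.17. Rpl27a, of the large subunit, was at 0.16 (−0.10 to 0.41), and Rps20 was at −0.04 (−0.28 to 0.20). In 60 of the 77 members (77.9%) the 95% interval lay wholly within a 1.5-fold change in either direction. That was so in 18.3% of the other tested genes, whose SEs were larger at a median of 0.23 against 0.14 log2 units. Among genes of at least 100 CPM, a level chosen after values were seen, the median SEs were 0.12 in 52 members and 0.13 in 610 other genes. Of these, 9.62% of the members and 56.1% of the other genes passed the test, and the median absolute change was 0.15 and 0.41 log2 units. With sign, the median change at day 5 was 0.05 in these members and 0.25 in these other genes. At day 14 it was −0.08 and 0.23, and in relapse minus AG120 it was 0.001 and −0.25. When the model held only the 6 day 5 libraries, 18 members rose and 10 fell. In that fit 6187 genes were called in all, against 4735 in the main fit. The cause of this difference was not tested. Without a filter on low counts it was 1 higher and 0 lower.

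**Figure D4:**
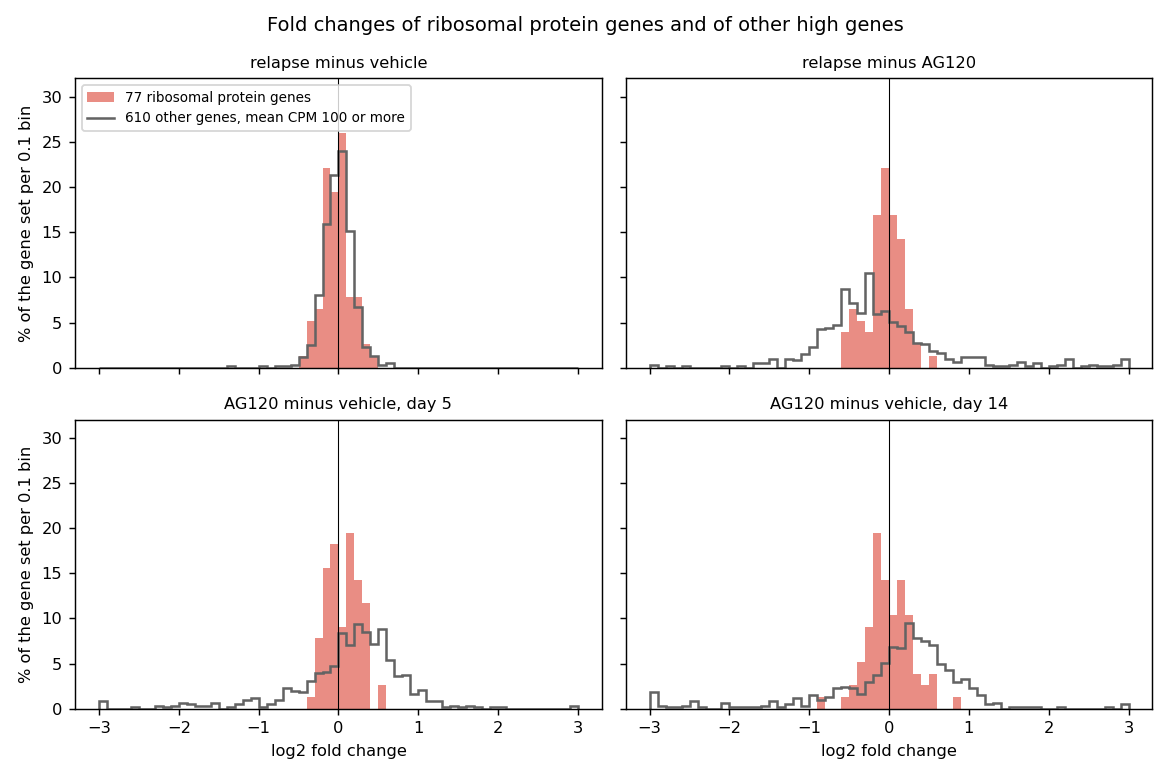
Log2 fold changes in 4 comparisons, as the percentage of each gene set per 0.1 bin (values beyond 3 in the end bins): filled, the 77 ribosomal protein genes; line, the 610 other genes with a mean of at least 100 CPM. At day 5 the ribosomal protein genes span −0.37 to 0.56 and the other genes −3.36 to 6.22 log2 units.

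Other measures moved with AG120 in the same libraries. Ribosomal RNA models took 62.5% to 65.3% of counts in AG120 day 5 and 50.9% to 59.8% in vehicle day 5, and with this share in the model Rplp1 stayed at 0.60 log2 units (adjusted p = 0.00314) while Rps24 was at −0.18 (adjusted p = 0.263). The 16 erythroid markers summed to 674 to 811 CPM in AG120 day 5 and 108 to 178 CPM in vehicle day 5, and to 2008 to 2237 CPM in AG120 day 14 and 148 to 193 CPM in vehicle day 14. The 9 neutrophil markers summed to 411 to 427 CPM in AG120 day 5 and 1102 to 1737 CPM in vehicle day 5, and to 1407 to 1794 CPM in AG120 day 14 and 1758 to 1879 CPM in vehicle day 14. The day 14 sums hold markers that moved in opposite directions. Ngp was at 262 and 241 CPM in AG120 day 14 and 108 and 126 CPM in vehicle day 14, whereas Mpo was at 134 and 127 CPM in AG120 and 800.0 and 711 CPM in vehicle. In relapse the erythroid markers summed to 81.1 to 499 CPM, the neutrophil markers to 631 to 2164 CPM and the monocyte markers to 29.1 to 69.2 CPM. The 5 B cell markers summed to at most 3.02 CPM in every library, with Cd79a and Pax5 at 0 in all AG120 libraries. The 5 stromal and endothelial markers summed to at most 1.49 CPM, with Cdh5 at 0 in all AG120 and vehicle libraries. The 5 monocyte markers summed to 11.9 to 13.9 CPM in AG120 day 5 and 30.4 to 37.3 CPM in vehicle day 5, and the 5 T and NK cell markers to 10.1 to 12.2 CPM in AG120 day 5 and 36.2 to 45.1 CPM in vehicle day 5, nearly all of it Nkg7. In such bulk samples a change in the mix of cells and a change of RNA within a cell cannot be told apart, and the part of these markers in the ribosomal protein results was not tested.

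At day 14 the same comparison was made with 2 libraries a group. Of the 77 members, 1 rose and 4 fell, while 16.8% of all tested genes rose and 17.9% fell. Rplp1 was again the member that rose, and Rpl39, Rps24, Rps29 and Rps28 fell. The median member was at −0.01 log2 units.

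Rplp1 was at 2424 and 2545 CPM in AG120 day 14, against 1655 and 1759 CPM in vehicle day 14. The change was 0.54 ± 0.14 log2 units (SE, adjusted p = 0.00567), close to that at day 5 in separate mice. Without vehicle day 14 replicate 1 the adjusted p was 0.0611. Rplp0 was at 374 and 495 CPM in AG120 and 316 and 356 CPM in vehicle (0.37 ± 0.16, adjusted p = 0.0879). Rplp2 was at 68.0 and 97.9 CPM in AG120 and 84.2 and 99.6 CPM in vehicle (−0.14 ± 0.19, adjusted p = 0.594).

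Rpl39, a very small protein at the exit tunnel of the large subunit, was at 30.4 and 45.3 CPM in AG120, against 67.1 and 74.5 CPM in vehicle. Its gene lies on chromosome X from 37082520 to 37085402. It fell by 0.89 ± 0.20 log2 units (SE) with an adjusted p of 0.00209, the largest change of any member called on either day. At day 5 it was at 54.7, 56.9 and 63.1 CPM in AG120 and 64.4, 66.3 and 73.0 CPM in vehicle (−0.22 ± 0.15, adjusted p = 0.265). The AG120 values were below the vehicle values on both days, as in 29.8% of all tested genes at day 5 and 36.3% at day 14. Replicate 1 was the lower of the AG120 day 14 pair.

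Rps24 was at 678 and 796 CPM in AG120 day 14, against 1062 and 1060 CPM in vehicle day 14 (−0.53 ± 0.14, adjusted p = 0.00679). Rps29, a zinc-binding protein of the small subunit, was at 335 and 464 CPM in AG120 and 517 and 606 CPM in vehicle (−0.49 ± 0.16, adjusted p = 0.0246). Rps28, a small-subunit protein near the exit of the mRNA channel, was at 305 and 391 CPM in AG120 and 451 and 487 CPM in vehicle (−0.43 ± 0.16, adjusted p = 0.0467). In each of these 3 genes the AG120 value of replicate 1 was the lowest of the 4 libraries. Without AG120 day 14 replicate 1, which had the largest share of ribosomal RNA, 2 members rose and 1 fell, and Rps24 had an adjusted p of 0.0789, while the calls of Rps29 and Rps28 were also lost. Without replicate 2, 10 members fell and 1 rose, and the median member was at −0.21 log2 units. Without vehicle day 14 replicate 1, 0 members rose, and without replicate 2 of vehicle 2 members fell, Rps29 and Rps28 being lost. The number of members called at day 14 therefore depends on which libraries are kept, while Rpl39 passed in all 14 alternatives tried.

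**Figure D5:**
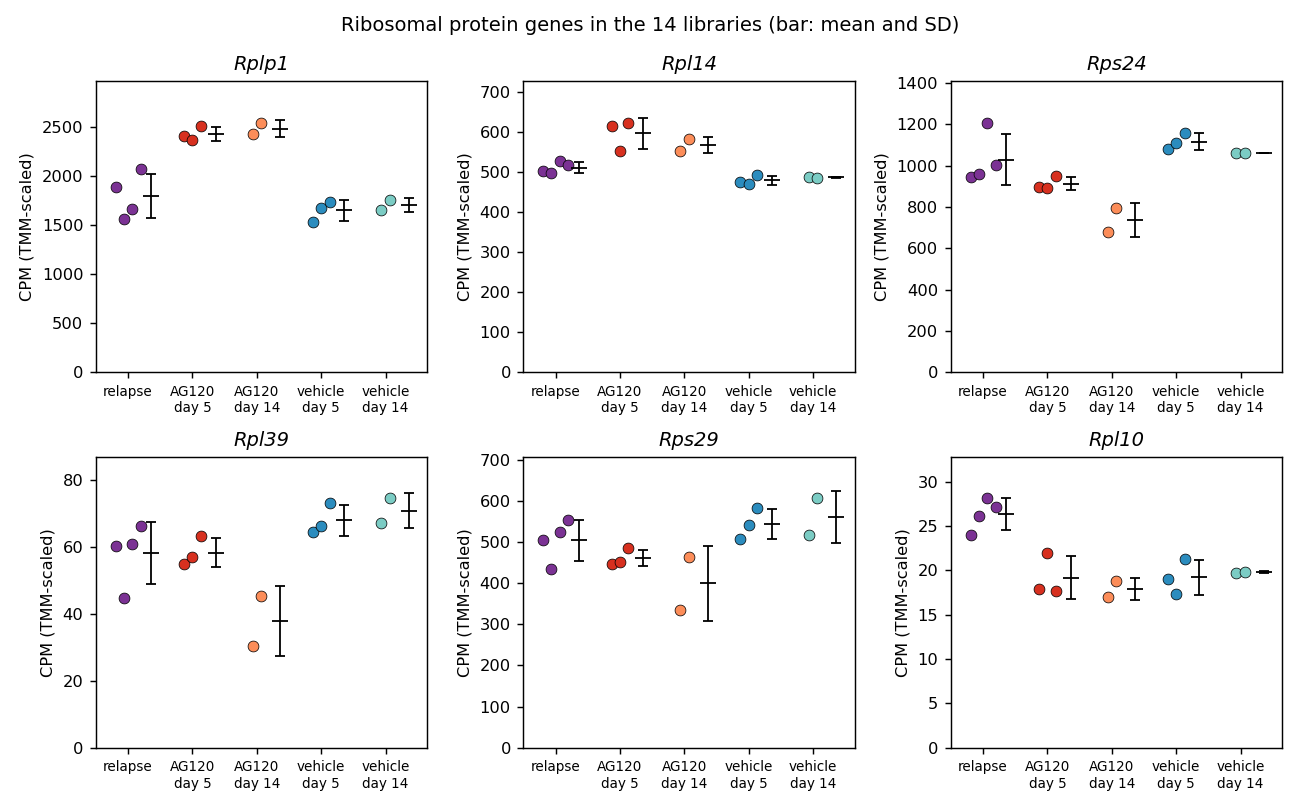
Levels of Rplp1, Rpl14, Rps24, Rpl39, Rps29 and Rpl10 (CPM, axes from 0) in each library, with mean and SD as black bars. Rplp1 is at 2370 to 2545 CPM in AG120 libraries and 1535 to 1759 CPM in vehicle libraries; Rpl10 is highest in relapse, at 24.0 to 28.1 CPM.

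The days had separate AG120 and vehicle mice, so the members' changes could be set against each other. Of the 77 members, 30 lay above 0 on both days, 27 below 0 on both days and 20 on opposite sides. Across members the log2 fold changes of the days correlated at a Pearson r of 0.56 and a Spearman rho of 0.64, and across the other tested genes at 0.77 and 0.76. Genes are not independent replicates and all pairs share the libraries, so these are descriptions. In the test of the difference between the days, 0 members were higher and 0 lower at day 14 (edgeR), beside 0.208% and 0.725% of all genes. An unadjusted p under 0.05 was found for 2 members and for 1479 of the 11917 other tested genes. The 2 members were Rpl39, at −0.67 ± 0.25 log2 units (adjusted p = 0.253), and Rpl35, a member under 10 CPM with 96.0% of words shared, at 1.08 ± 0.49 (adjusted p = 0.386). DESeq2 also called 0 in either direction.

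The balance between the subunits differed between AG120 libraries and the rest, and it is given as a description. Small-subunit genes took 52.5%, 53.5% and 53.1% of the members' counts in AG120 day 5, and 56.8%, 56.4% and 56.7% in vehicle day 5. They took 50.7% and 52.1% in AG120 day 14, and 55.6% and 56.8% in vehicle day 14. The 4 relapse libraries were at 55.0%, 56.3%, 56.4% and 55.3%. All 5 AG120 libraries lay below all 5 vehicle libraries and all 4 relapse libraries. Counts are dominated by the highest genes, so the share was also taken without Rps9 and Rplp1, the highest small-subunit gene and the highest stalk gene. It was then 51.7% to 53.7% in AG120, 54.6% to 55.7% in relapse and 55.4% to 56.4% in vehicle. Rplp1 alone took 6.59% to 8.11% of the summed level of the set in AG120 libraries, 4.75% to 5.44% in relapse and 4.56% to 5.06% in vehicle. With every gene given equal weight, the mean log2 level of the small-subunit genes exceeded that of the large-subunit genes by 1.08 to 1.145 in AG120 libraries. The excess was 1.17 to 1.23 in relapse and 1.19 to 1.24 in vehicle. The single genes were mostly not called, beside 20.1% of all tested genes that rose and 19.3% that fell at day 5 and 16.8% and 17.9% at day 14. Of 31 small-subunit genes 1 rose and 1 fell at day 5, and 0 rose and 3 fell at day 14. Of 43 large-subunit genes 2 rose and 0 fell at day 5, and 0 rose and 1 fell at day 14.

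The next question was whether relapsed disease differed from vehicle. With edgeR's quasi-likelihood test 0 members were higher and 0 lower in relapse than in the mean of both vehicle groups, beside 0.1% and 0.0834% of all tested genes. An unadjusted p under 0.05 was found for 10 of the 77 members and for 1380 of the 11917 other tested genes. DESeq2 called 2 members higher, Rpl3 and Rpsa, among 120 genes that it called in all. Rpl3 was at 467, 450.4, 478 and 483 CPM in relapse, against 344, 341 and 370.0 CPM in vehicle day 5 and 390.4 and 393 CPM in vehicle day 14. All 4 relapse libraries lay above all 5 vehicle libraries, as in 6 of the members and 1.98% of all tested genes. The difference was 0.34 ± 0.08 log2 units (SE, adjusted p = 0.0895). It passed without relapse replicate 2 (0.38, adjusted p = 0.0231). Rpsa was at 515, 543, 482 and 510.4 CPM in relapse, also above the vehicle range of 419 to 471 CPM (0.21 ± 0.08, adjusted p = 0.306). Rpl10, which joins the large subunit late in its assembly, was at 0.44 ± 0.11 (adjusted p = 0.112). Rplp1 was at 0.10 ± 0.09 log2 units with a 95% interval of −0.10 to 0.29. The 95% interval lay within a 1.5-fold change in 64 of the 77 members, so larger differences from vehicle are outside the interval for most of the set.

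Relapse was also compared with the mean of both AG120 groups, a contrast that shares the AG120 libraries with the comparisons above. Of the 77 members, 5 were higher and 8 lower in relapse, against 27.9% and 26.1% of all tested genes. Among those that were higher were Rpl10, Rps24, Rps15a and Rps6, at 0.26 to 0.51 log2 units. The members that were lower were Rpl36, Rps2, Rpl41, Rpl37a, Rplp1, Rplp0, Rpl8 and Rpl12, at −0.54 to −0.29 log2 units. Several of these calls were not stable over 19 alternatives. Rpl36, which sets the −0.54 end at a mean of 7.335 CPM with 89.2% of words shared, was kept in 12 and Rpl12 in 9. Rpl8 was kept in 15, Rpl37a in 16 and Rps15a in 17. Without relapse replicate 2 the calls of Rpl36, Rpl37a, Rpl8 and Rpl12 were lost. Without AG120 day 14 replicate 1 those of Rpl36, Rpl12, Rps15a and Rps6 were lost.

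Rpl10 was at 24.0, 26.1, 28.1 and 27.2 CPM in relapse, against 17.9, 22.0 and 17.7 CPM in AG120 day 5 and 17.0 and 18.8 CPM in AG120 day 14. Its gene lies on chromosome X from 74270812 to 74273135. The groups did not overlap, as in 3 of the members and 18.3% of all tested genes in this direction. The change was 0.51 ± 0.11 log2 units (SE, adjusted p = 0.00125), and the call was kept in 19 of 19 alternatives. Among these was a fit that adds the counts of its pseudogene copies, since all words of its 3′ end are shared with other genes. Such a fit cannot restore reads that may have been dropped before counting, so the level stays uncertain. Vehicle values were 17.3 to 21.3 CPM, so the 4 relapse libraries lay above the other 10. This held for Rpl3 too, at 450.4 CPM or more in relapse and at most 449.1 CPM in the other libraries. The share of all tested genes with relapse above every other library was not counted.

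Rps24 was at 946, 958, 1209 and 1005 CPM in relapse, against 678 to 949 CPM in the 5 AG120 libraries (0.33 ± 0.09, adjusted p = 0.00637). The lowest relapse library lay just below AG120 day 5 replicate 3, and the groups were otherwise apart. Rplp1 was at 1883, 1565, 1665 and 2076 CPM in relapse, against 2370 to 2545 CPM in AG120 (−0.45 ± 0.09, adjusted p = 0.00062). Rplp0 was at 331, 296, 299.8 and 401 CPM in relapse and 374 to 495 CPM in AG120 (−0.42 ± 0.11, adjusted p = 0.00425). The Rplp1 groups did not overlap, as in 5 of the members and 18.9% of all tested genes in this direction. The Rplp0 groups overlapped by AG120 day 14 replicate 1. For Rplp1, 2 relapse libraries lay within the vehicle range of 1535 to 1759 CPM and 2 above it. For Rps24, 3 relapse libraries lay below the vehicle range of 1060 to 1159 CPM and 1 above it.

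Rps2, a protein at the entry of the mRNA channel, was at 48.7, 39.5, 45.9 and 64.5 CPM in relapse, against 77.4, 86.7, 80.3, 53.1 and 69.1 CPM in AG120 (−0.51 ± 0.13, adjusted p = 0.00366). Rpl41, the smallest ribosomal protein, was at 246, 152, 228 and 265 CPM in relapse and 262 to 335 CPM in AG120 (−0.48 ± 0.13, adjusted p = 0.00577). In both genes the groups overlapped by AG120 day 14 replicate 1, and both calls were kept in 19 of 19 alternatives. Rps6, the substrate of the S6 kinases, was at 80.7, 71.5, 78.8 and 84.0 CPM in relapse and 58.1 to 79.5 CPM in AG120 (0.26 ± 0.11, adjusted p = 0.0477), a call kept in 10 of 19 alternatives. Leaving out relapse replicate 2 moved the counts to 14 higher and 4 lower, and leaving out AG120 day 14 replicate 2 moved them to 11 higher and 4 lower. Without AG120 day 14 replicate 1, 2 members were higher. Without AG120 day 5 replicate 2, relapse replicate 3 or relapse replicate 4, 3 members were higher. The share of all tested genes called in these fits is not given here. A shift of the members is therefore not told apart from a shift of all calls.

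Genes of Diamond-Blackfan anemia, a list of 18 members named after the human disease, were mostly not called. At day 5 Rps24 fell and 17 did not pass, where 19.3% of all tested genes fell. At day 14 Rps24, Rps28 and Rps29 fell and 15 did not pass, a share close to the 17.9% of all genes that fell. In relapse 1 of the 18, Rps24, was higher than in AG120, where 27.9% of all tested genes were higher. Against vehicle 0 passed, beside 0.1% of all tested genes that were higher and 0.0834% that were lower. Rps19, the gene most often altered in the human disease, was at −0.20 log2 units at day 5 (adjusted p = 0.394) and −0.37 at day 14 (adjusted p = 0.201). Rpl5 and Rpl11, which bind Mdm2 when ribosome assembly is disturbed, were at −0.14 and 0.12 at day 5 (adjusted p = 0.465 and 0.554).

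Paralogs and a fused gene were measured beside their parents. Rps27l, a paralog of Rps27 known in human as a p53 target, was at 64.0, 68.8 and 64.7 CPM in AG120 day 5, against 34.7, 38.1 and 43.0 CPM in vehicle day 5. It rose by 0.77 ± 0.18 log2 units (SE, adjusted p = 0.00277), was at 0.50 ± 0.22 at day 14 (adjusted p = 0.0907), and was lower in relapse than in AG120 (−0.53 ± 0.15, adjusted p = 0.00709). Rpl7l1 was at 0.35 ± 0.14 at day 5 (adjusted p = 0.0572) and was lower in relapse than in AG120 (−0.39 ± 0.12, adjusted p = 0.0117), a call lost without relapse replicate 2. Rpl22l1, whose mRNA is known to be held down by Rpl22 in mice, was at 0.42 ± 0.23 at day 5 (adjusted p = 0.15). It passed at 0.79 with ribosomal RNA share in the model (adjusted p = 0.0107) and at 0.40 when the model held only the 6 day 5 libraries (adjusted p = 0.000682). It stood at 7.59 ± 0.99 per 100 Rpl22 in AG120 and 6.63 ± 0.34 in vehicle (SD, n = 3 each). Rpl36al stood at 28.7 ± 0.44 per 100 Rpl36a in AG120 day 5 and 22.4 ± 2.11 in vehicle day 5 (SD, n = 3 each), but 100% of the words of Rpl36a and 70.1% of those of Rpl36al are shared with other genes. Rpl10l and Rpl39l, paralogs known from testis, had 0 counts in all 14 libraries, where up to 3 counts a library could be missed. Fau was at −0.14 log2 units at day 5 and did not pass in any comparison.

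Genes that share the pyrimidine tract or act on the same pathway were counted beside the members. Of 20 further TOP mRNAs and elongation genes, 8 rose and 1 fell at day 5, and 4 rose and 1 fell at day 14. Of the 610 genes outside the members at 100 CPM or more, 56.1% passed in either direction at day 5 and 50.5% at day 14. The median change of the 20 genes was 0.24 log2 units at day 5, against 0.25 in the 610 genes. At day 14 these medians were 0.14 and 0.23. Npm1, a nucleolar chaperone, was at 1683, 1427 and 1605 CPM in AG120 day 5, against 660.3, 741 and 713 CPM in vehicle day 5 (1.16 ± 0.19, adjusted p = 0.000212). Eef1d, a subunit of the exchange factor of elongation, rose by 0.77 ± 0.14 (adjusted p = 0.000348). Tpt1, a classical TOP mRNA, fell to 640.4, 725 and 699 CPM in AG120, against 832, 863 and 901 CPM in vehicle (−0.33 ± 0.12, adjusted p = 0.0335). This call was lost without any 1 of the 6 day 5 libraries. At day 14 Tpt1 was at −0.56 ± 0.14 (adjusted p = 0.00643), a call lost without AG120 day 14 replicate 1 or vehicle day 14 replicate 2.

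Of 19 genes around mTORC1 and its targets, 7 rose and 3 fell at day 5, and 4 rose and 2 fell at day 14. Larp1, the TOP-binding protein, was at 132, 120.8 and 122 CPM in AG120 day 5, against 57.3, 71.6 and 68.9 CPM in vehicle day 5 (0.92 ± 0.15, adjusted p = 0.000191). It was also higher at day 14 (0.82 ± 0.19, adjusted p = 0.00298) and lower in relapse than in AG120 (−0.70 ± 0.13, adjusted p = 0.000222). Myc, which drives ribosome production, was at 21.0, 30.5 and 24.7 CPM in AG120 day 5, against 12.2, 7.06 and 9.65 CPM in vehicle day 5 (1.41 ± 0.22, adjusted p = 8.67e-05). At day 14 it was at 15.5 and 11.4 CPM in AG120 and 17.1 and 16.3 CPM in vehicle (−0.33 ± 0.28, adjusted p = 0.384). The difference between the days passed (−1.735 ± 0.35, adjusted p = 0.0274) but was lost without 8 of the 10 libraries in turn. Tsc2 and Maf1, which restrain mTORC1 and RNA polymerase III, fell at day 5 (−0.61 ± 0.22, adjusted p = 0.0335, and −0.51 ± 0.17, adjusted p = 0.0217). Each of these calls was kept in 11 of 16 alternatives. Both were lost with ribosomal RNA share in the model and without vehicle day 5 replicate 1 or 2.

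A list of genes that act on ribosomal proteins before or during assembly was mostly higher at day 5. It held chaperones and import factors, and also assembly factors such as Brix1, Rrs1, Ltv1 and Nop53. Of its 14 tested genes, 10 rose and 0 fell at day 5, and 6 rose and 0 fell at day 14. In relapse 0 were higher and 11 lower than in AG120. Heatr3, known in human for the nuclear import of RPL5, was at 33.3, 35.4 and 30.1 CPM in AG120 day 5, against 11.7, 15.1 and 15.5 CPM in vehicle day 5 (1.22 ± 0.17, adjusted p = 3.58e-05). Bccip, known in human as a chaperone of RPL23, rose by 1.04 ± 0.18 (adjusted p = 0.000244), and Brix1, an assembly factor of the large subunit, by 0.82 ± 0.17 (adjusted p = 0.00106). Of 12 tested genes listed for ribosome hibernation and turnover, 9 rose and 1 fell at day 5, and 5 rose and 0 fell at day 14. Beside rescue and recycling genes the list held Eef2k, and Eif6, Sbds, Efl1, Lsg1 and Nmd3, of late maturation and export of the large subunit. Hbs1l and Abce1, of rescue and recycling, rose by 1.146 ± 0.21 (adjusted p = 0.000381) and 0.69 ± 0.16 (adjusted p = 0.00235). Eef2k, the kinase that slows elongation, fell by 0.68 ± 0.21 (adjusted p = 0.0168). In relapse 0 genes of these lists passed against vehicle in either direction. The lists were chosen with earlier results of these data known, and their counts are descriptions. Over all tested genes 20.1% rose and 19.3% fell at day 5, 16.8% rose and 17.9% fell at day 14, and 27.9% were higher and 26.1% lower in relapse than in AG120. The day 14 counts of the genes around mTORC1 lie close to these shares.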

How the data were processed

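QuantSeq 3′ mRNA sequencing was applied to progenitors sorted from 14 mice, a library each. The authors deposited raw counts per gene in 1 table, whose columns were matched to the libraries by name. Per the submitters' processing notes, the build was mm10 and the tools included HISAT2 2.1.0, featureCounts and Subread 1.6.3. Not given in the sources used here are the strand setting, molecular identifiers and the treatment of reads that match several places, so near-identical copies and overlapping genes can share or lose counts. Symbols and positions came from the GENCODE annotation of GRCm38, which named 52489 of 52636 identifiers.

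Genes were filtered with filterByExpr (minimum count 10), which left 11994. TMM scaling was followed by edgeR 4.0.16 (R 4.3.3; quasi-likelihood, robust, 1 coefficient per group, all 14 libraries, 9 residual degrees of freedom). Adjusted p values are Benjamini-Hochberg over all genes tested, with a threshold of 0.05. CPM was taken over TMM-scaled libraries, and its log2 with 2 prior counts. SEs are the fold change over the root of F, and 95% intervals use the t quantile. P values measure the spread between these mice. Limits from a count of 0 cover counting error only. The fitting code was tested on simulated counts.

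Alternatives were other scalings, no filter, DESeq2 1.42.0, limma-voom 3.58.1, only the groups compared, a replicate block, ribosomal RNA share as a covariate and leaving out each library; adding pseudogene copies (those with at least 25% of words shared) was chosen after seeing the data. The members and lists were chosen with earlier results of these data known. Genes named are the 6 highest members, Rpsa and the stalk, up to 6 members per direction past the threshold, up to 3 of each other list, and those with an outlying relapse library. Rpl8, Rpl12, Rps19, Rpl5 and Rpl11 were named after their values were seen. Bxdc2 and Znf598, 2 listed genes, were not analysed here. Some genes that the naming rule would give are not reported here.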

Additional observations from a re-analysis of the deposited data

Results flagged for a closer look

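In groups of 4 to 10 libraries, which only relapse was, the gap of the highest or lowest library to its neighbour was compared with Dixon's 95% critical ratio for 4 samples. Chance passes it in about 1 of 20 groups, and 114 values were examined, of which 3 of the 77 members passed. Rpl17 was at 60.6 CPM in relapse replicate 3 and at 47.0 to 47.5 CPM in the other relapse libraries. Rpl21 was at 18.1 CPM in relapse replicate 3 and at 7.47 to 8.49 CPM in the others, with 100% of the words of its 3′ end shared with other genes. Rps12 was at 2.31 CPM in relapse replicate 2 and at 6.58 to 7.41 CPM in the others, also with 100% of words shared. Outside the members, Maf1 was at 13.6 CPM in relapse replicate 1 and at 20.04 to 20.5 CPM in the others. The effect of AG120 on Myc differed between the days by −1.735 log2 units (edgeR's quasi-likelihood test, adjusted p = 0.0274).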

How the results depend on the processing

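No result changed its sign past the threshold under any alternative. At day 5 the members higher and lower were 1 and 0 with no filter on low counts and 18 and 10 with only the groups compared. DESeq2 gave 2 lower, and the ribosomal RNA covariate 0 lower. Leaving out each library gave 1 to 3 higher and 0 to 0 lower at day 5. At day 14 DESeq2 gave 3 higher, only the groups compared 2 higher, and the covariate 2 higher and 2 lower. Leaving out each library gave 0 to 2 higher and 1 to 10 lower, with a median of −0.21 to 0.11 log2 units. Where that left 1 library in a group, it was assumed to vary like the other groups. For the difference between the days, only the groups compared gave 1 lower (Rpl39), and the median ran from −0.26 to 0.025 without each library. Relapse against vehicle gave 2 higher with DESeq2 and 0 to 1 higher without each library. Relapse against AG120 gave 8 higher and 5 lower with no filter, 9 higher with DESeq2, 4 lower with only the groups compared, 3 higher with the covariate, and 2 to 14 higher and 4 to 11 lower without each library. Calls over all genes moved as well. At day 5 they were 4735 in the main fit, 4621 with no filter, 4471 with DESeq2 and 6187 with only the groups compared. In relapse against AG120 they were 6482, 6528, 6172 and 5614 in the same order. Shares over all genes without each library are not given here. The causes were not tested.

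Replicate numbers did not mark pairs: deviations of same-numbered libraries correlated at 0.11, 0.05 and 0.02 at day 5 and 0.07 at day 14. With a replicate block 2 members rose and 1 fell at day 5, 1 rose and 3 fell at day 14, and 2 were higher and 14 lower in relapse than in AG120.

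With all counts as the denominator, ribosomal RNA included, the members' share was 3.43% in relapse, 3.416% in AG120 day 5, 2.69% in AG120 day 14, 4.31% in vehicle day 5 and 3.61% in vehicle day 14. Adding 236 pseudogene copies to 49 members added 1.26% to the summed counts of all 77 members. Depth limits members under 10 CPM most.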
